A study of Apis mellifera with 12 samples.

Results

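When a caged queen is set free she starts to lay again, and the question here is how the circular RNAs (circRNAs) of her ovaries differ between these states. Here 3 ovary samples of released queens, which had spent 7 days in a cage and were laying when sampled on day 8, were compared with 3 samples of caged queens, whose laying was suppressed and which were sampled at the end of day 7 in their own colony. All are honey bee (Apis mellifera) queens, and both groups share the 7 days of confinement, so the released group differs from the caged group by its release and by the later sampling day, which cannot be told apart. These 6 libraries were taken by their labels from a series of 12, whose other groups, 3 samples of virgin and 3 of normally laying queens for which the labels list no treatment, serve as reference levels. The labels do not say that each sample is a separate queen, nor give ages in days. Of 20244 circRNAs in the deposited table, the 3215 (15.9%) that passed a filter on low counts were tested, and 9 of these were listed at 0 in all 6 libraries.

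A circRNA forms when a splice donor is joined to an acceptor upstream of it, which closes the exons in between into a ring. Having no free end, such rings resist exonucleases and tend to outlive the linear transcripts of their genes. A queen's ovary holds many ovarioles, strings of egg chambers in which nurse cells feed the growing oocyte and follicle cells wrap it. In whole ovaries, fewer cells of a type and less RNA per cell cannot be told apart. The table gives each circRNA an ID, a position in assembly Amel_4.5 and a strand but no gene, so no host gene, gene function or ovary marker was checked here. Spans below are the listed end minus the listed start. They include introns and are not the length of the RNA.

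The released libraries held 106396, 163875 and 111025 circRNA reads, and the caged libraries held between 170382 and 206697. Every caged library was thus deeper than every released one. The circRNAs tested took between 94.6% and 95.9% of the reads in these 6 libraries. Over all circRNAs, 5026 were listed in both groups, 3377 in the released group alone and 4919 in the caged group alone. Thinned to 106396 reads, the released libraries listed 4405 ± 322 and the caged libraries 4191 ± 88.9 circRNAs with at least 2 reads (SD, n = 3 each; exact two-sided permutation p = 0.4, adjusted 0.467 over 7 library measures).

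No single circRNA passed the test between released and caged ovaries. Of 3215 circRNAs, 0 (0%) had an adjusted p under 0.05 (edgeR quasi-likelihood test), and the smallest adjusted p was 0.557. At an unadjusted p under 0.05, 85 (2.64%) were higher and 120 (3.73%) lower in released ovaries, and DESeq2 also called 0. This lean to lower levels depended on the setting, with 109 higher and 108 lower when library totals were the scaling and 75 higher and 68 lower under a stricter filter. Without released replicate 2, edgeR called 2, namely ame_circ_0014681 and ame_circ_0017519, and without the low-count filter it called 10. In 194 circRNAs (6.03%) the 3 released libraries all lay above the 3 caged ones, and in 185 (5.75%) they all lay below. Where no values tie, a share of 0.1 of all ways to label 3 against 3 libraries gives such separation in either direction. Separation of a single circle is thus a description.

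Fitted changes were small for abundant circRNAs and wide for scarce ones. The median size of the log2 fold change was 0.45 over all circRNAs, and 613 (19.1%) were more than 2-fold and 196 (6.10%) more than 4-fold apart. Of the 170 circRNAs with a mean over 1000 CPM (CPM, the count scaled to a common total of circRNA reads) in the 6 libraries, 1 was past 4-fold, against 181 of the 1446 with a mean under 50 CPM. The median distance from the estimate to the end of its 95% interval was 0.53 on the log2 scale in the first set and 2.51 in the second.

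**Figure D1:**
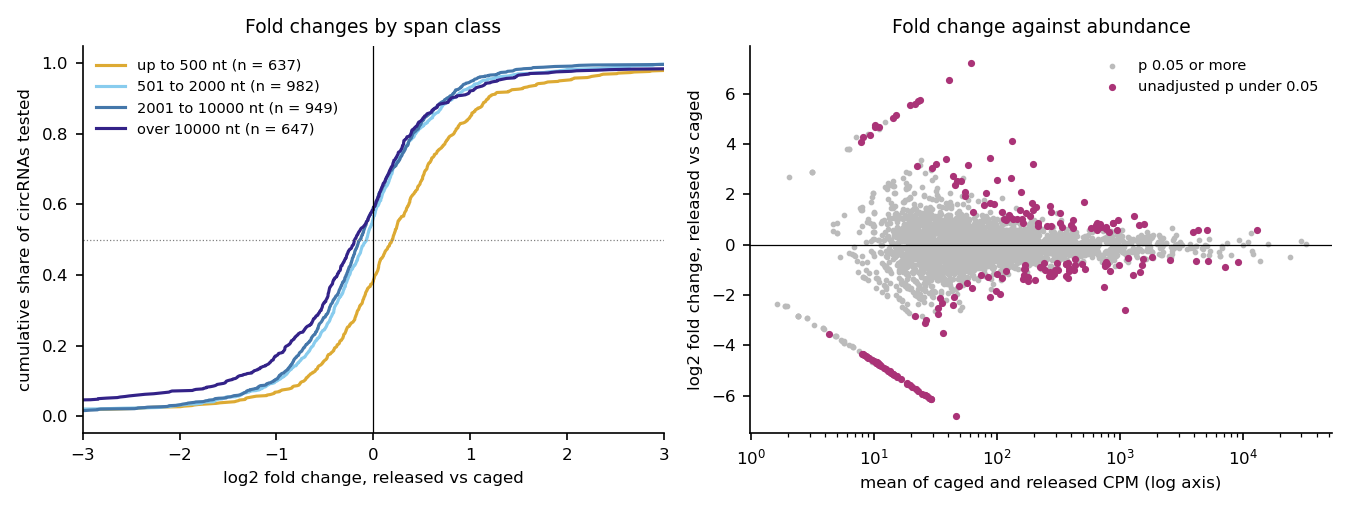
Left, cumulative share of the circRNAs tested against their log2 fold change (released vs caged), 1 line per span class. Right, log2 fold change against mean CPM (log axis), 1 point per circRNA, with unadjusted p under 0.05 in colour. The line of the shortest class lies to the right of the other classes, and points spread widely below about 50 CPM. The diagonal streaks are circRNAs listed at 0 in 1 whole group, whose fitted fold depends on the prior count.

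The clearest pattern was in the span of the circles. Circles spanning up to 500 nt took 23.4%, 21.6% and 21.0% of the reads in the released libraries and 18.6%, 18.9% and 19.1% in the caged libraries. Circles spanning over 10000 nt took 18.5%, 20.7% and 20.6% in the released libraries against 22.3%, 21.9% and 22.6% in the caged ones. In both classes the groups did not overlap. The released mean was higher by 3.17 percentage points for the short circles and lower by 2.35 points for the long ones (released minus caged -2.35), and with 3 libraries against 3 the exact two-sided permutation test gave p = 0.1 for each, the smallest it can give, with an adjusted p of 0.233 over the 7 library measures. The shares of a library add up to the whole, so these differences are not independent of each other.

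The middle classes overlapped between the groups. Circles spanning 500 to 2000 nt took 30.4% ± 1.09 of the reads in released and 29.6% ± 1.07 in caged ovaries (SD, n = 3 each; exact permutation p = 0.4). Circles spanning 2000 to 10000 nt took 27.6% ± 0.885 and 29.2% ± 1.35 (exact permutation p = 0.2), and without caged replicate 1 this difference of -1.64 points was -0.896. The span at which a library reached the middle of its reads was between 1375 and 1815 nt in the released and between 2008 and 2210 nt in the caged libraries. The read-weighted mean of log2 span was 11.01 ± 0.111 in released and 11.24 ± 0.04997 in caged ovaries, again without overlap (exact permutation p = 0.1, adjusted 0.233).

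The released mean sat near the laying mean on this scale, with single released libraries on either side of the laying ones. Normally laying ovaries gave short circles 22.3% ± 0.277 and long circles 20.7% ± 0.651 of the reads, with a mean log2 span of 11.01 ± 0.0167. For short circles the laying libraries lay between 22.1% and 22.7%, with released replicate 1 above them and released replicates 2 and 3 below. For mean log2 span they lay between 11.00 and 11.03, against 10.88, 11.09 and 11.06 in released replicates 1, 2 and 3. Virgin ovaries gave short circles 25.1% ± 2.03 and long circles 14.6% ± 0.0518. Depth moved with the groups, since the caged libraries were the deepest of the 6, and its part in the result was not tested. Over the tested circRNAs alone the short circles were still higher in released ovaries, by 3.04 points. As a share of circRNAs listed, not of reads, the groups overlapped after thinning to 106396 reads. Short circles were then 29.8%, 22.4% and 26.7% of those listed in released and 21.1%, 22.8% and 22.7% in caged libraries. Circles over 10000 nt were 14.2%, 18.6% and 15.5% against 19.8%, 17.8% and 17.6%.

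**Figure D2:**
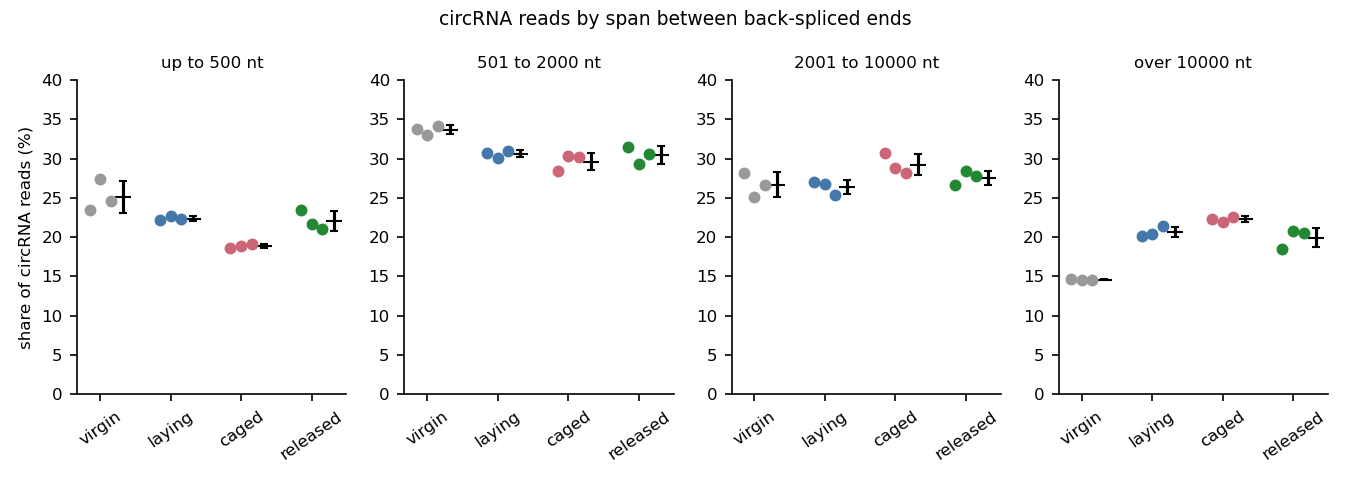
Share of circRNA reads (%) taken by circles of each span class, 1 point per library, with the mean and SD (n = 3) beside each group. Short circles lie between 21.0% and 23.4% in released libraries, above the 18.6% to 19.1% of caged libraries, and long circles lie below the caged level in all 3 released libraries.

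The same tilt was seen circRNA by circRNA. Of 637 tested circles up to 500 nt, 391 (61.4%) had a higher fitted level in released ovaries, against 45.7% of all 3215. Their median log2 fold change was 0.20, where it was -0.06 over all circRNAs tested. The medians of the longer classes were -0.07 for 500 to 2000 nt (982 circRNAs), -0.14 for 2000 to 10000 nt (949) and -0.19 for over 10000 nt (647). Across 3206 circRNAs with an estimate, which share libraries and often exons, log2 span and log2 fold change had a Pearson correlation of -0.15 and a Spearman correlation of -0.17, given as a description.

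Calls at an unadjusted p leaned the same way. Among the short circles 28 (4.40%) were higher and 13 (2.04%) lower, against 2.64% and 3.73% of all tested. Among circles over 10000 nt 16 (2.47%) were higher and 39 (6.03%) lower. Circles whose groups did not overlap, 6.03% higher and 5.75% lower over all, numbered 58 higher and 15 lower for short circles and 28 higher and 53 lower for the longest. The median abundance was 55.8 CPM for the short and 51.1 CPM for the longest class.

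The tilt was present at each level of abundance for short circles. Of those with a mean over 1000 CPM, 25 of 35 (71.4%) were higher in released ovaries, as were 170 of the 294 (57.8%) under 50 CPM. Of the 30 circles over 10000 nt with a mean over 1000 CPM, 26 were lower and 4 higher in released ovaries. Their median log2 fold change was -0.26, and 43.5% of all 170 circRNAs at that level were higher. At 50 to 200 CPM the longest class showed no such tilt in direction, with 105 of 217 (48.4%) higher against 48.0% of all. The share of this class that was higher was 39.5% against 45.1% under 50 CPM and 35.8% against 43.5% at 200 to 1000 CPM. The 30 circles over 1000 CPM came from 18 stretches of genome. At the unadjusted threshold 8 of them were picked out, 7 of these lower, against 19 of all 170 circRNAs over 1000 CPM. Among the lower ones, ame_circ_0019202, ame_circ_0019205, ame_circ_0019206 and ame_circ_0019211 overlap in a single stretch of LG8.

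The released libraries did not share this tilt equally. Each library was set against the mean of the 3 laying libraries for circRNAs with a mean of at least 100 CPM, 238 short and 209 over 10000 nt. Released replicate 1 had a median log2 difference of 0.08 for short and -0.08 for the longest circles. Released replicate 2 stood at 0.09 and 0.20, and released replicate 3 at -0.04 and 0.05. The caged libraries stood between -0.10 and -0.02 for short and between 0.09 and 0.29 for the longest circles. Short minus long was thus 0.16, -0.11 and -0.09 in the released and -0.40, -0.26 and -0.12 in the caged libraries, so that released replicate 2 and caged replicate 3 were almost level and released replicate 1 stood apart. Without this library, the one with the fewest reads, the released minus caged difference in read share was 2.47 points for short and -1.64 points for the longest circles.

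The most abundant circles were near level. The first by mean CPM, ame_circ_0011734 (LG2, 4758065 to 4774296, plus), was at 28351, 37023 and 28802 CPM in the caged and 35058, 30548 and 34560 CPM in the released libraries. Its log2 fold change was 0.02 with a 95% interval from -0.65 to 0.68, and its sign changed with single libraries left out. Levels of ame_circ_0000149 (scaffold GL630373.1, 79029 to 79584, minus) were 27524 ± 6958 CPM in caged ovaries and 31949 ± 2630.2 CPM in released ones. For ame_circ_0006312 (LG15, 5011343 to 5011735, plus), the most abundant circle up to 500 nt, they were 15507 ± 7071 and 16747 ± 3751 CPM. None of these differences in mean exceeded the SD of the caged replicates, though that of ame_circ_0000149 exceeded the SD of the released ones. The signs for ame_circ_0000149 and ame_circ_0006312 also changed with a library left out.

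Others among the most abundant separated the groups without passing the test. The circle ame_circ_0009157 (LG1, 21227866 to 21228686, minus) was at 10194, 9919 and 10440 CPM in caged and at 13478, 17898 and 16285 CPM in released libraries, a log2 fold change of 0.58 (SE 0.21, adjusted p = 0.734), with 13514 ± 1456 CPM in laying ovaries. The short ame_circ_0011720 (LG2, 4699241 to 4699421, plus) was at 9423 ± 1888 and 13696 ± 1700.4 CPM, again with all released libraries above all caged ones. In the other direction, ame_circ_0006346 (LG15, 5368191 to 5375154, minus) was at 20291, 12777 and 16489 CPM in caged and at 8901, 11625 and 12556 CPM in released libraries, and at 7905 ± 3596 CPM in laying ovaries. For ame_circ_0017693 (LG7, 640672 to 648915, minus) the released libraries held 11495, 28552 and 22644 CPM and the caged ones 35898, 25836 and 21636 CPM, so the groups overlapped.

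One stretch of LG8 held several of the abundant long circles. Its 8 tested circRNAs, on the minus strand from 8546045 to 8600528, used 3 listed starts and 3 listed ends in combination, and this stretch was chosen after its values were seen. All 8 had a lower fitted level in released ovaries, and 5 had an unadjusted p under 0.05. Together they took 3.52%, 4.54% and 6.10% of the circRNA reads in the caged and 3.02%, 2.92% and 3.89% in the released libraries. These ranges overlap, since caged replicate 1 lies below released replicate 3. The log2 fold change of the sum was -0.60 (SE 0.20, adjusted p = 0.571 over 1654 loci), and the laying level, 31929 ± 4171 CPM, lay near the released level of 32755 ± 5332 CPM.

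Within this stretch the 2 largest differences were in circles that reach the far end at 8600528. The circle ame_circ_0019202 (54483 nt) was at 1369, 1679 and 2241 CPM in caged and at 423, 1098 and 865 CPM in released libraries, a log2 fold change of -1.19 (SE 0.32). Its neighbour ame_circ_0019206 (51058 nt) was at 6555, 9350 and 11700 CPM and at 4775, 4735 and 5927 CPM (log2 fold change -0.91, SE 0.26), and for both the groups did not overlap. For ame_circ_0019211 (46541 nt) the log2 fold change was -0.68. Circles that end at 8568048 stood at -0.78 (ame_circ_0019201), -0.61 (ame_circ_0019205) and -0.38 (ame_circ_0019210). Those that end at 8554151 stood at -0.13 (ame_circ_0019200) and -0.43 (ame_circ_0019203). The test for circles of one locus that differ from each other gave an adjusted p of 0.999 here, so this order is a description. With these 8 circles left out, the longest class was still lower in released ovaries, by 1.39 points (released minus caged -1.39), and the short class higher by 2.97 points; the longest class then overlapped, at 16.6%, 18.9% and 18.0% against 20.1%, 19.0% and 18.7%.

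Among circles with the smallest unadjusted p and a higher level in released ovaries, most were also above the caged level in laying ovaries. The first of these, ame_circ_0003173, is described with its locus below. The circle ame_circ_0012215 (LG3, 1090193 to 1091573, plus) held 184, 182 and 187 CPM in the caged libraries and 573, 500 and 324 CPM in the released ones, a 2.40-fold difference (95% interval of the log2 fold change 0.51 to 2.01, adjusted p = 0.557), with 398 ± 72.4 CPM in laying ovaries. The caged libraries agreed closely and the released ones were spread. For ame_circ_0008996 (LG1, 20479379 to 20485952, plus) the caged libraries held 1437, 916 and 931 CPM and the released ones 1814, 2044 and 2225 CPM, with 1616 ± 321 CPM in laying ovaries. The circle ame_circ_0015702 (LG5, 9141630 to 9145087, plus) was at 111, 47.0 and 238 CPM against 470, 427 and 324 CPM, with 627 ± 342 CPM in laying ovaries. The 76752 nt circle ame_circ_0011709 (LG2, 4622669 to 4699421, plus), a long circle with the opposite direction to its class, was at 610, 892 and 857 CPM against 2096, 2075 and 1333 CPM, with 1547 ± 323 CPM in laying ovaries.

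Laying ovaries were below the caged level in 2 of the 10 circles named here. These were ame_circ_0010792 (LG2, 11218336 to 11229860, plus), at 106, 88.04 and 119 CPM in caged, 310, 256 and 360 CPM in released and 74.6 ± 32.5 CPM in laying libraries, and ame_circ_0006366 (LG15, 5591528 to 5591882, plus), at 329, 258 and 227 CPM in caged, 536, 751 and 405 CPM in released and 226 ± 42.3 CPM in laying libraries. Both had released libraries above every laying library. The remaining ones were scarce. The circle ame_circ_0009167 (LG1, 21362587 to 21366466, plus) was at 44.8 ± 23.5 CPM in caged ovaries and at 146 ± 30.6 CPM in released ones, and ame_circ_0013110 (LG3, 7821870 to 7822316, minus) at 10.2 ± 9.72 and 107 ± 39.9 CPM. The largest fold of the 10, 11.0 for ame_circ_0012878 (LG3, 4928200 to 4928582, plus), rests on released replicate 1, with 432 CPM against 30.5 and 27.02 CPM in the other released libraries and 11.3 to 14.5 CPM in caged ones. Without that library its log2 fold change was 1.09 in place of 3.46. The adjusted p of these 10 lay between 0.557 and 0.721.

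Of the 10 circles with a lower released level, all had a laying mean below the caged mean as well. The circles ame_circ_0019202 and ame_circ_0019206 were given with LG8 above, and ame_circ_0003180 follows with its locus. The circle ame_circ_0017491 (LG7, 3190629 to 3210895, plus) was at 1577, 487 and 1316 CPM in caged and at 244, 439 and 414 CPM in released libraries, with a log2 fold change of -1.68 (SE 0.47) and 446 ± 307 CPM in laying ovaries. Its groups are separate only by the gap between 487 and 439 CPM. For ame_circ_0008990 (LG1, 20474705 to 20475459, plus) the caged libraries held 2109, 1585 and 2156 CPM and the released ones 526, 1288 and 1054 CPM. The circle ame_circ_0012574 (LG3, 1652350 to 1655751, plus) was at 532, 534 and 465 CPM against 226, 195 and 360 CPM (log2 fold change -1.05, SE 0.30), and the laying level of 400.5 ± 69.9 CPM lay in between.

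The other 4 with a lower released level differed by 1.72-fold to 2.47-fold. The circle ame_circ_0003467 (LG12, 1332757 to 1336368, minus) was at 506 ± 36.4 CPM in caged ovaries and at 227 ± 81.1 CPM in released ones, with 211 ± 134 CPM in laying and 2199 ± 753 CPM in virgin ovaries. Levels of ame_circ_0019277 (LG8, 9235370 to 9237533, minus) were 388 ± 187 and 174 ± 41.2 CPM. For ame_circ_0010031 (LG1, 28909334 to 28927223, minus) they were 253 ± 88.9 and 106 ± 11.1 CPM, and for ame_circ_0003764 (LG12, 6735589 to 6743431, plus) 938 ± 198 and 575 ± 48.4 CPM. Of these 10 circles 8 spanned over 2000 nt and 0 up to 500 nt, while the 10 with a higher level held 6 and 3. Of all 3215 tested, 637 spanned up to 500 nt, 949 spanned 2000 to 10000 nt and 647 over 10000 nt. The laying libraries entered neither side of the comparison of released with caged libraries. But all circles here were picked for their difference between these groups, so a caged level far from the others is favoured by the choice.

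**Figure D3:**
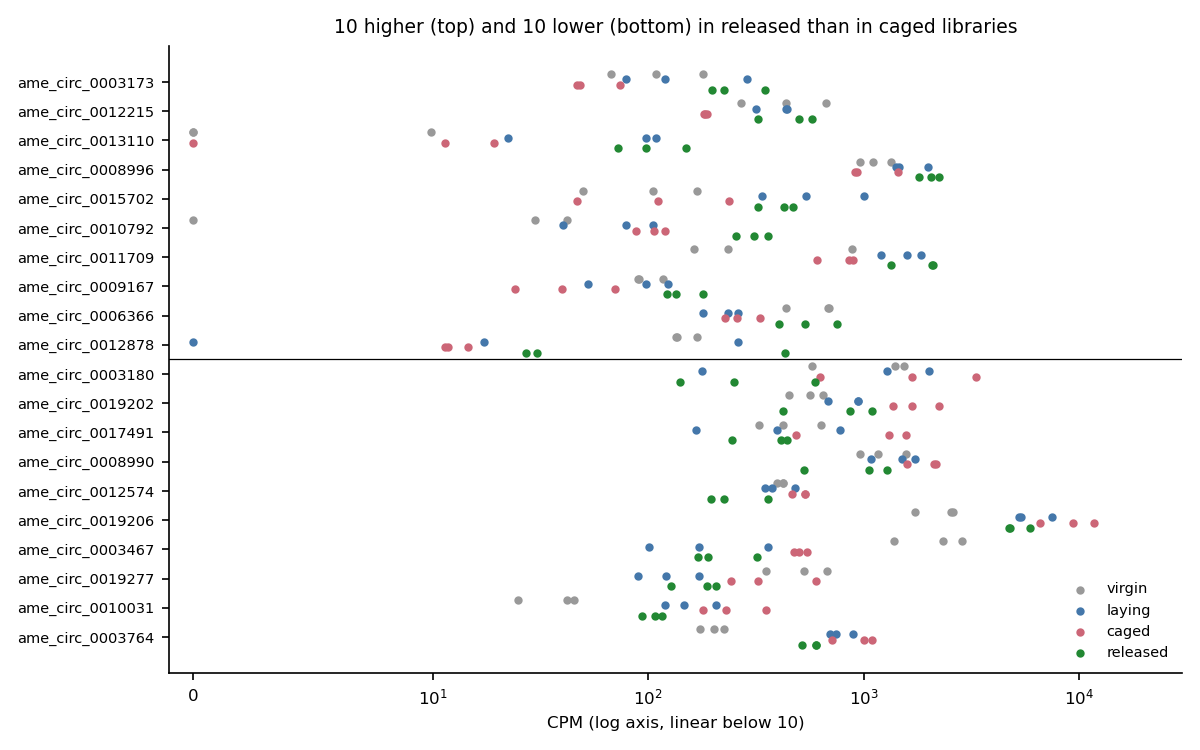
Levels in CPM (log axis, linear below 10) of the 20 circRNAs with the smallest unadjusted p among those whose released and caged libraries did not overlap and were not all 0 in 1 group, 1 point per library, coloured by group. The released points lie to the right of the caged points in the upper 10 and to the left in the lower 10, by construction. The mean of the laying points lies on the released side of the caged mean in all but ame_circ_0010792 and ame_circ_0006366. Single laying points lie on the other side in ame_circ_0012878 and ame_circ_0003180 as well.

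Some circles were listed in 1 of the groups alone. Of all 20244 circRNAs in the table, 12 were listed in all 3 released and no caged library, and 128 in all 3 caged and no released library. Of the 3215 tested, 25 were listed in released libraries alone and 81 in caged libraries alone. The smallest count above 0 in the table is 2, the caged libraries were the deeper ones, and the part of depth in these listings was not tested. Among those with the smallest p, ame_circ_0005121 (LG14, 3739479 to 3791339, plus) had 10, 7 and 12 reads in the released libraries. The circle ame_circ_0009395 (LG1, 23162961 to 23164474, minus) had 9, 47 and 0 reads there, and ame_circ_0011106 (LG2, 13212914 to 13213101, plus) had 10, 2 and 4. All 3 were listed at 0 in every caged library. In the reverse direction, ame_circ_0008049 (LG1, 11206728 to 11209676, minus) had 9, 13 and 28 reads in the caged libraries, ame_circ_0013613 (LG4, 1504179 to 1509957, minus) had 7, 14 and 7, and ame_circ_0004464 (LG13, 4214596 to 4245611, plus) had 9, 10 and 13. No fold is given for these, and none was called with the low-count filter (edgeR, adjusted p from 0.557 to 0.734). Without that filter edgeR called 3 of the 6, ame_circ_0009395 (adjusted p = 0.000937), ame_circ_0008049 (0.00894) and ame_circ_0005121 (0.0399). Their fitted log2 fold changes hardly differed between the fits with and without the filter, while the adjusted p did. All were picked for being at 0 in a whole group, and ame_circ_0009395 was also at 0 in released replicate 3.

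In 1 stretch of LG11 the split of reads between overlapping circles passed a test. Its 13 tested circRNAs lie on the plus strand from 9105252 to 9188050 and use 6 listed starts and 7 listed ends. The circle ame_circ_0003173 (9171811 to 9186489) was at 48.4, 47.0 and 73.8 CPM in the caged and at 348, 226 and 198 CPM in the released libraries, a 4.27-fold higher level (log2 fold change 2.10, SE 0.51, adjusted p = 0.557). The circle ame_circ_0003180 (9186334 to 9188050), which overlaps the end of the former by 155 nt, was at 1679, 3304 and 624 CPM in the caged and at 141, 250 and 594 CPM in the released libraries, a 5.98-fold lower level (log2 fold change -2.58, SE 0.66, adjusted p = 0.557). The nearest caged and released libraries of the latter, at 624 and 594 CPM, were almost level.

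Of 573 loci with at least 2 tested circRNAs, this was the 1 (0.175%) in which the circles differed from each other in their change (edgeR diffSpliceDGE, adjusted p = 0.0138). The call rests on single libraries. Without released replicate 1 the adjusted p was 0.544, without released replicate 2 it was 0.252, without caged replicate 1 it was 0.410 and without caged replicate 2 it was 0.681, whereas without caged replicate 3 it was 0.00336 and without released replicate 3 it was 0.000544. Chosen after seeing the data, leaving out ame_circ_0003180 gave an adjusted p of 0.911 and leaving out ame_circ_0003173 gave 0.306.

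As a share of the reads of this locus, ame_circ_0003180 took 37.4%, 54.3% and 18.4% in the caged and 4.24%, 8.04% and 15.7% in the released libraries, while ame_circ_0003173 took 1.08%, 0.771% and 2.17% against 10.5%, 7.25% and 5.24%. In both cases the groups did not overlap, which the choice of these circles by their levels in the same libraries favours. The other abundant circles of the locus were near level. The first of them, ame_circ_0003156 (9129961 to 9143873), was at 1629 ± 81.9 CPM in caged ovaries and at 1681 ± 187 CPM in released ones. The small circle ame_circ_0003159 (9143681 to 9143873), which has the same end, was at 511 ± 100.1 and 582 ± 4.77 CPM. The circle ame_circ_0003171 (9165042 to 9186489), with the same end as ame_circ_0003173, was at 275 ± 29.3 and 249 ± 46.8 CPM. The circle ame_circ_0003168 (9165042 to 9171878) was at 16.1 ± 4.21 and 51.2 ± 12.7 CPM, and ame_circ_0003158 (9129961 to 9171878) at 33.9, 58.7 and 0 CPM in caged libraries and listed at 0 in released ones.

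The laying libraries were split in this locus. In laying replicates 1, 2 and 3, ame_circ_0003180 was at 2001.4, 178 and 1279 CPM and ame_circ_0003173 at 120, 287 and 79 CPM, so that laying replicate 2 resembled the released libraries and the other laying libraries the caged ones. In virgin ovaries the levels were 1171 ± 519 and 119 ± 57.3 CPM. Summed over its circles, the locus was at 4658 ± 1354 CPM in caged ovaries and at 3407 ± 343 CPM in released ones (log2 fold change -0.53, SE 0.26, adjusted p = 0.666).

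**Figure D4:**
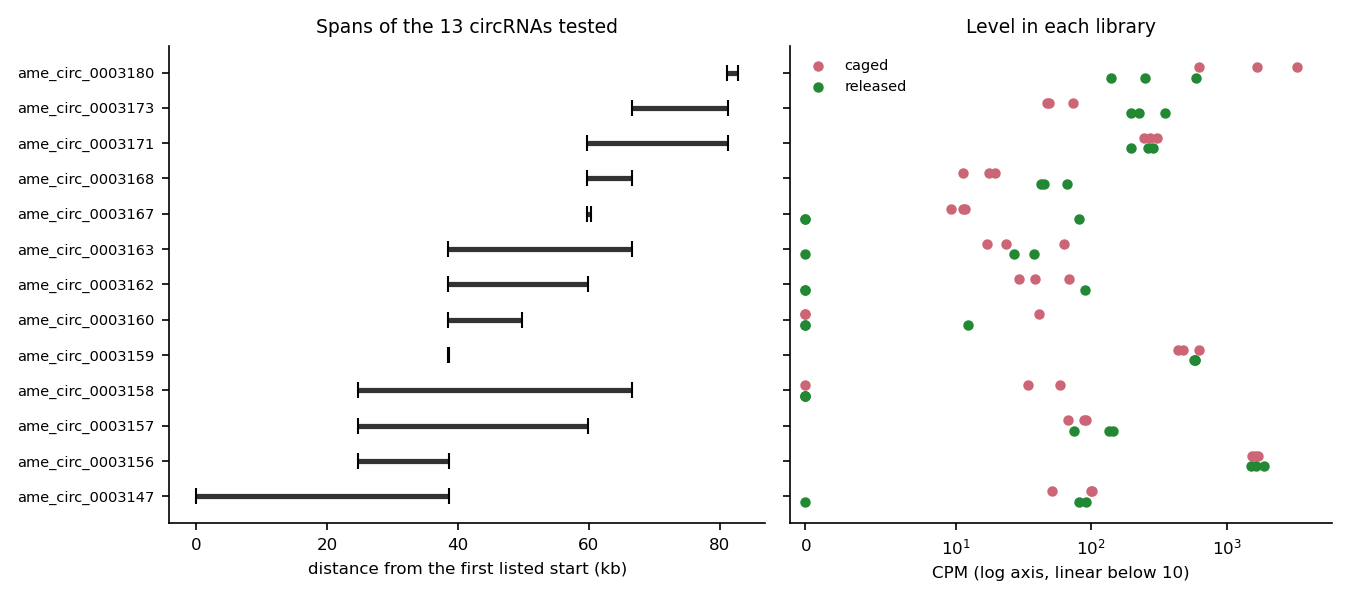
Left, the 13 tested circRNAs of the LG11 locus drawn to scale as bars between their listed ends, in kb from the first listed start. Right, their CPM (log axis, linear below 10) in the 3 caged and 3 released libraries. The topmost circle, ame_circ_0003180, lies lower and the next, ame_circ_0003173, higher in every released library, while ame_circ_0003156 and ame_circ_0003159 overlap between groups.

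Circles of one locus with opposite directions, each at an unadjusted p under 0.05, were found elsewhere too, without a call for the locus. There were 25 such combinations in 12 loci, the LG11 locus included, while 11 other loci held 2 or more circles at that level in one direction. On LG1, ame_circ_0008996 and ame_circ_0008990, both given above, lie in a locus from 20453409 to 20487730 (plus) whose sum was near level (log2 fold change 0.19, SE 0.21) and whose test for differing circles gave an adjusted p of 0.349. On LG2, ame_circ_0011709 stood at a log2 fold change of 1.16 and ame_circ_0011795 (4795896 to 4807227, plus), at 421, 329 and 494 CPM in caged and 254, 189 and 207 CPM in released libraries, stood at -1.01. A listed start or end was shared with another tested circRNA by 62.3% of the 3215, and by 61.5% of the 205 picked out at the unadjusted threshold.

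Summing all circles of a locus did not give calls either. Of 1654 loci, 0 (0%) were called by edgeR or by DESeq2, and 129 (7.8%) had an unadjusted p under 0.05, 59 higher and 70 lower in released ovaries. Without released replicate 3, edgeR called 1 locus, and without released replicate 2 it called 3. Several of the loci with the smallest p hold 1 circle already described. Of those with more, the locus of 4 circles on LG3 from 1652350 to 1655751 (plus), which holds ame_circ_0012574, was at 639, 651 and 584 CPM in caged and 320, 330 and 396 CPM in released libraries (log2 fold change -0.92, adjusted p = 0.571). The locus of 2 circles on LG3 from 4928200 to 4928582 (plus), which holds ame_circ_0012878, was at 29.0, 11.7 and 11.4 CPM in caged and 602, 48.8 and 54.0 CPM in released libraries, again with released replicate 1 far above the others. The locus of 2 circles on LG8 from 9232591 to 9237533 (minus) was at 295, 646 and 340 CPM against 188, 153 and 207 CPM. The locus of 2 circles on LG6 from 10570545 to 10571885 (minus) was at 14.5, 41.1 and 34.0 CPM in caged libraries, was listed at 0 in the released ones and was at 271 ± 46.8 CPM in virgin ovaries.

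Over all circRNAs tested, released libraries differed among themselves more than caged ones. The root mean square difference of log2(CPM + 10) between 2 libraries lay between 1.18 and 1.32 for the 3 released pairs and between 0.968 and 1.06 for the 3 caged pairs. The 9 pairs of a caged and a released library lay between 1.06 and 1.29. Released replicates 2 and 3 were each nearer to every caged library, at 1.06 to 1.16, than to any other released library, at 1.18 to 1.32. Over circRNAs with a mean of at least 100 CPM the released pairs, at 0.770 to 0.933, overlapped the caged pairs, at 0.709 to 0.778. There released replicates 2 and 3 stood at 0.770 from each other. Released replicate 3 was nearer to caged replicates 1 (0.687) and 3 (0.720), but not to caged replicate 2 (0.808). Released replicate 2 was at 0.769 from caged replicate 3 and further from caged replicates 1 (0.783) and 2 (0.872). The common biological coefficient of variation fitted within a group was 0.440 in released, 0.363 in caged, 0.381 in laying and 0.429 in virgin ovaries. For circRNAs with a mean of at least 100 CPM it was 0.335 in released and 0.286 in caged ovaries. Released libraries were also the shallower ones, whose part in the spread was not tested, and the difference in spread itself has no test here.

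Released replicate 1 stood apart in span and in distance over all circRNAs tested, and less so in the number of single deviations. Its root mean square difference from each other library of the 6 lay between 1.22 and 1.32. The largest without it was 1.18, between released replicates 2 and 3. At 100 CPM or more it was not always the furthest, with 0.846 from caged replicate 2 against 0.872 between that library and released replicate 2. Of 1175 circRNAs with a released mean of at least 100 CPM, 25 (2.13%) in released replicate 1 were more than 4-fold from the mean of the other released libraries, and 20 (1.70%) each in replicates 2 and 3. In the caged libraries this share lay between 0.438% and 0.701% of 1141 circRNAs. Replicate 1 was the highest of the 3 for 442 circRNAs and the lowest for 379, while replicates 2 and 3 were highest for 369 and 364.

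Single circles showed how wide this spread can be. The circle ame_circ_0002325 (LG11, 1298804 to 1321228, minus) was listed at 0 in caged replicate 2 and released replicate 1, but held 7867 and 7002 CPM in the other caged and 6090 and 7485 CPM in the other released libraries. In virgin and laying libraries it was at 4272 ± 1012 and 8929 ± 317 CPM. The circle ame_circ_0001519 (LG10, 6245885 to 6246217, minus) was at 1212, 1080 and 72.1 CPM in the released and at 82.2, 170 and 460 CPM in the caged libraries, and ame_circ_0017185 (LG7, 11997637 to 11998027, minus) was at 254, 2203 and 360 CPM in the released and 643 ± 81.0 CPM in the caged ones. These were the widest of the circles with a released mean of at least 500 CPM.

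At the other end, some circles were measured closely enough to bound their change. The circle ame_circ_0010758 (LG2, 10820530 to 10831810, minus) was at 7010, 7149 and 6139 CPM in the caged and 7162, 6822 and 6683 CPM in the released libraries, with a 95% interval of the log2 fold change from -0.45 to 0.35. The interval ran from -0.43 to 0.40 for ame_circ_0002247 (LG11, 12386243 to 12388251, minus), from -0.47 to 0.38 for ame_circ_0019085 (LG8, 7707993 to 7711395, minus) and from -0.39 to 0.46 for ame_circ_0013412 (LG4, 11340903 to 11341453, minus). Their estimates of -0.05, -0.01, -0.05 and 0.03 change sign with the scaling for the first 3. By span class, the interval lay within 4-fold in either direction for 45.5% of circles up to 500 nt, 51.0% of those of 500 to 2000 nt, 50.4% of those of 2000 to 10000 nt and 42.3% of those over 10000 nt.

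**Figure D5:**
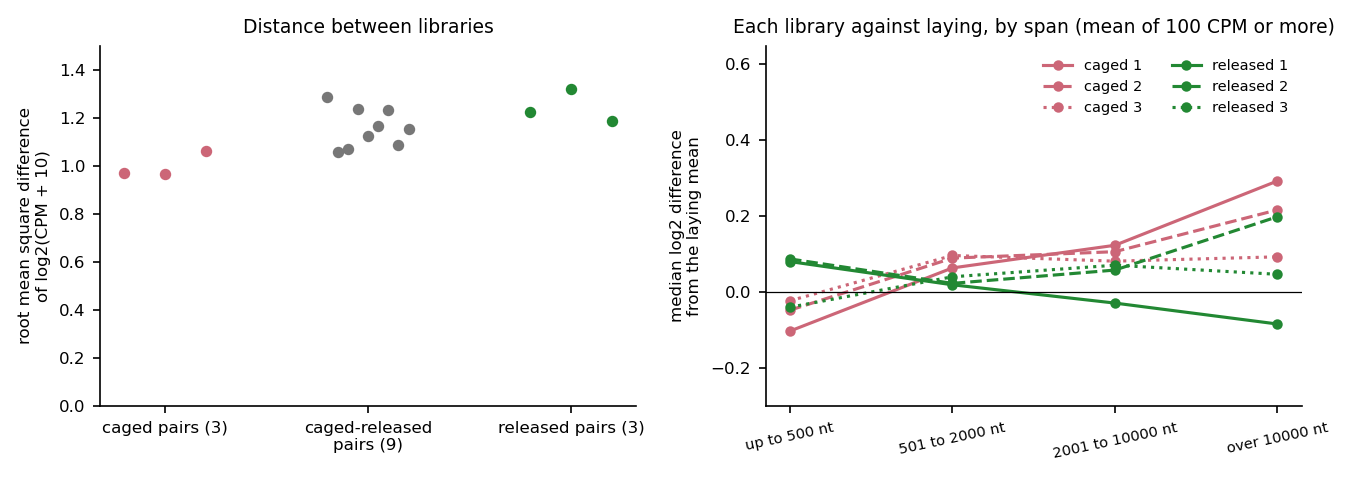
Left, root mean square difference of log2(CPM + 10) over the circRNAs tested for each pair of libraries. Released pairs lie between 1.18 and 1.32, above all 3 caged pairs. Right, median log2 difference of each caged and released library from the mean of the laying libraries, by span class, for circRNAs with a mean of at least 100 CPM. Each caged line ends higher at the longest class than it starts at the shortest, as do those of released replicates 2 and 3. The line of released replicate 1 falls.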

How the data were processed

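Per the labels' protocols, ribosomal RNA was removed from 5 µg of ovary RNA, RNase R (which digests linear RNA) was applied, directional libraries were read as 150 bp pairs, and Amel_4.5 was the reference. The submitters' processing notes name Bowtie without a version, and no source used here gives the circRNA caller. The authors deposited whole-number read counts per circRNA and library. Their columns headed TPM, per the file headers, equal each count divided by its library total, within 4.989e-06, and so are deposited CPM with no length term. Counts of 1 do not occur. No source used here says whether starts count from 0 or 1.

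Counts of all 12 libraries entered 1 edgeR 4.0.16 fit (R 4.3.3; TMM scaling; filterByExpr with minimum count 5 and minimum total 15), tested on simulated data first. Released minus caged was tested by quasi-likelihood with Benjamini-Hochberg adjustment at 0.05. The SE is the log2 fold change over the square root of F, and 95% intervals use the t distribution. Fold changes follow TMM and so differ from ratios of printed CPM means. Loci are circRNAs with overlapping spans on one strand (GenomicRanges 1.54.1), which need not be genes, and reads shared by overlapping circles rest on the authors' calling. Single values per library were compared by exact permutation. P-values measure only the spread between these samples, which may be technical. Library totals from 106396 to 206697 limit the precision. Libraries of a group differed by more than sampling noise (chi-square per degree of freedom at least 4.66), and the labels give no sequencing batch.

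Members, lists and rules were chosen with earlier results of these data known. Named circRNAs are the 10 per direction with the smallest unadjusted p among those whose groups did not overlap and were not at 0 in a whole group, 3 per direction at 0 in a whole group, the 6 most abundant and the 2 most abundant per span class, the 3 with the largest spread among released libraries, the 4 with the narrowest interval, 3 opposite combinations in a locus, and 4 loci per direction. Alternatives changed the scaling, filter, test (DESeq2 1.42.0), libraries, replicate block and thinning.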

Additional observations from a re-analysis of the deposited data

How the results depend on the processing

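Without the low-count filter edgeR called 10 circRNAs, 3 loci and 5 loci whose circles differed from each other, with 128 circRNAs higher and 220 lower at an unadjusted p under 0.05, and with the stricter filter 75 were higher and 68 lower. The 10 were ame_circ_0001519, ame_circ_0003180, ame_circ_0003335, ame_circ_0005121, ame_circ_0008049, ame_circ_0009374, ame_circ_0009395, ame_circ_0012878, ame_circ_0014681 and ame_circ_0017491. For the 7 of them chosen by the naming rules, the log2 fold change hardly differed from that of the filtered fit, while the adjusted p did. With library totals as scaling, 109 were higher and 108 lower. Leaving out each replicate in turn gave 0 to 2 called circRNAs, 0 to 3 called loci, 0 to 3 loci whose circles differed, 62 to 108 circRNAs higher and 92 to 165 lower at an unadjusted p under 0.05, and an adjusted p of the LG11 split from 0.000544 to 0.681. That p was 0.306 without ame_circ_0003173, 0.911 without ame_circ_0003180 and 0.999 without both, while other scalings, filters and a fit of these 6 libraries alone kept it under 0.05. With library totals as scaling, the median log2 fold change was 0.268 up to 500 nt, -0.00443 for 500 to 2000 nt and -0.0654 for 2000 to 10000 nt, and with the stricter filter it was -0.0287 and -0.0679 in the latter classes. Without the 10 most abundant circRNAs, the share of 500 to 2000 nt was lower in released ovaries by 0.136 points (released minus caged -0.136). The released minus caged share of the 10 most abundant was -0.0496 and ran from -0.466 to 0.669 with single libraries left out, and the number listed after thinning differed by 41.9 without released replicate 1 in place of 214. The difference in biological coefficient of variation was 0.0485 for circRNAs of at least 100 CPM and 0.0769 over all.

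Of 540 combinations of a named circRNA and an alternative, 509 kept direction and side of the threshold, 7 passed it without the filter and 24 changed sign, all of the latter in 9 circRNAs. The log2 fold change of ame_circ_0002247 was 0.0123 with DESeq2 size factors, 0.0125 with DESeq2, 0.0136 with 6 libraries alone, 0.0634 with library totals and 0.0193 with the stricter filter. Library totals also gave 0.0263 for ame_circ_0010758 and 0.0246 for ame_circ_0019085, and no filter gave -0.00934 for ame_circ_0011734. With replicates left out, the range was -0.0566 to 0.14 for ame_circ_0011734, -0.0553 to 0.25 for ame_circ_0000149, -0.29 to 0.37 for ame_circ_0006312, -0.77 to 0.37 for ame_circ_0002325, -1.17 to 0.96 for ame_circ_0017185, -0.0983 to 0.0738 for ame_circ_0002247 and -0.0651 to 0.0750 for ame_circ_0013412. The cause of these shifts was not tested.

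The deviations of released and caged libraries of the same number from their group means correlated at -0.151, -0.0399 and -0.0571. Pairs of unlike number correlated at -0.0485 to 0.116. Deviations within a group cancel out, so these correlations constrain each other. They cannot decide whether libraries of the same number share more than that number. With the replicate block, 0 loci had circles that differed, the adjusted p of the LG11 split was 0.216 and the log2 fold change of ame_circ_0002325 was 0.0639, and no circRNA or locus was called.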
